A study of Mus musculus with 3 samples.

Results

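Nodal is a secreted ligand of the TGF-beta family that signals through activin receptors and the transcription factors SMAD2 and SMAD3. The 9 genes described here encode parts of that pathway: the ligands Nodal and Gdf3, the co-receptor Tdgf1 (Cripto), the secreted antagonists Lefty1, Lefty2 and Cer1, the SMAD partner Foxh1, and the SMAD co-repressors Skil and Tgif1. They were taken by name, with all of the 15 probe sets that the platform annotation pairs with them, out of 18193 genes that have a probe set of their own. A floor was set at 3.44, the table's median value, and 8 of the 9 genes exceeded it on at least 1 array, while Cer1 did not. They were proposed with earlier results of these data known.

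The cells were R1, an established mouse embryonic stem (ES) cell line, in the undifferentiated state. They received 20 ng/ml BMP4 for 4 h, received 100 ng/ml noggin for 4 h, or were not treated, with no time given for the last in the labels. BMP4, a bone morphogenetic protein, activates SMAD1 and SMAD5; noggin is secreted, binds BMPs and blocks them. Each condition was measured on 1 Affymetrix array, so no value has a replicate error, no test was possible, and every difference below describes 3 arrays of 1 cell line. Values are log2 expression, and a difference of 1 is 2-fold. In a bulk culture, fewer cells that express a gene and less RNA per cell cannot be told apart.

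As background, mouse ES cells make Nodal themselves, and Tdgf1 is needed on the cell surface for Nodal and Gdf3 to reach the activin receptors. Activated SMAD2 or SMAD3 joins SMAD4, binds DNA together with partners such as Foxh1, and switches on genes that include Nodal, Lefty1 and Lefty2. The Lefty proteins then block the ligand and its co-receptor outside the cell, which makes a negative feedback loop. Skil (SnoN) and Tgif1 restrain SMAD complexes in the nucleus. SMAD4 is shared with the BMP branch.

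The arrays were first set against markers. All of the 9 ES cell markers listed, among them Pou5f1, Sox2 and Nanog, were above the floor. Their mean was 11.11 with BMP4, 11.04 with noggin and 11.05 untreated. The marker list includes Tdgf1, which is also a member of the pathway set. Id1, a direct BMP target, measured 11.54 with BMP4, 8.59 with noggin and 8.78 untreated. Of 10 fibroblast markers, 7 were above the floor on at least 1 array, and the collagen genes Col1a1 and Col3a1 and Lum were below it on all 3. Of the 7, 3 were lower with BMP4 than untreated, S100a4 by −0.55, Postn by −0.32 and Col1a2 by −0.17. Thy1 was 0.02 higher and 3 were equal. Postn exceeded the floor only with noggin, at 3.55. Its BMP4 value of 3.00 and untreated value of 3.32 were both under the floor, so that difference was not read as one in transcript. S100a4 was also lower with noggin, at −0.31. Log2 levels were also summed over whole lists, with the genes below the floor included. Col3a1, at −0.40 for BMP4 minus untreated, is one of these, so the sums were not read as differences in transcript. The sum of the fibroblast list was 36.9 with BMP4, 38.2 with noggin and 38.3 untreated. That of 7 primitive endoderm markers was 26.2 with BMP4, 24.5 with noggin and 24.6 untreated. Of those 7, 4 were above the floor, and with BMP4 Sox7 was higher by 0.99, Gata6 by 0.52 and Sox17 by 0.08, with Dab2 equal; Gata4, Foxa2 and Afp were below the floor. In the trophoblast list, Tfap2c, which ES and germ cells also express, was 0.38 higher with BMP4 and Hand1 0.03 higher, with Cdx2, Elf5 and Krt7 below the floor. Of the 4 neuroectoderm markers, Pax6 was at −0.37, Nes at 0.03 and Tubb3 at 0.09, with Sox1 below the floor. Poly-A spikes are added to the RNA before labelling. Their 24 probe sets had a median difference of −0.63 for BMP4 minus untreated and −0.18 for noggin minus untreated. For the 18 probe sets of a separate control, the hybridisation spikes, these medians were 0.01 and −0.01. The part of these markers and spikes in the differences below was not tested.

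In BMP4-treated cells the pathway genes did not differ as a block. Lefty1 had the lowest difference of any gene above the floor, Lefty2 was lower by less, and Skil was higher. The probe sets of Gdf3, Tdgf1 and Foxh1 differed from untreated by −0.02 to 0.06, and those of Nodal by −0.20 and 0.00. With noggin, no member above the floor differed from its untreated value by as much as 0.32, a limit that 1.35% of all genes passed in that comparison. The values of each gene follow by role.

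**Figure D1:**
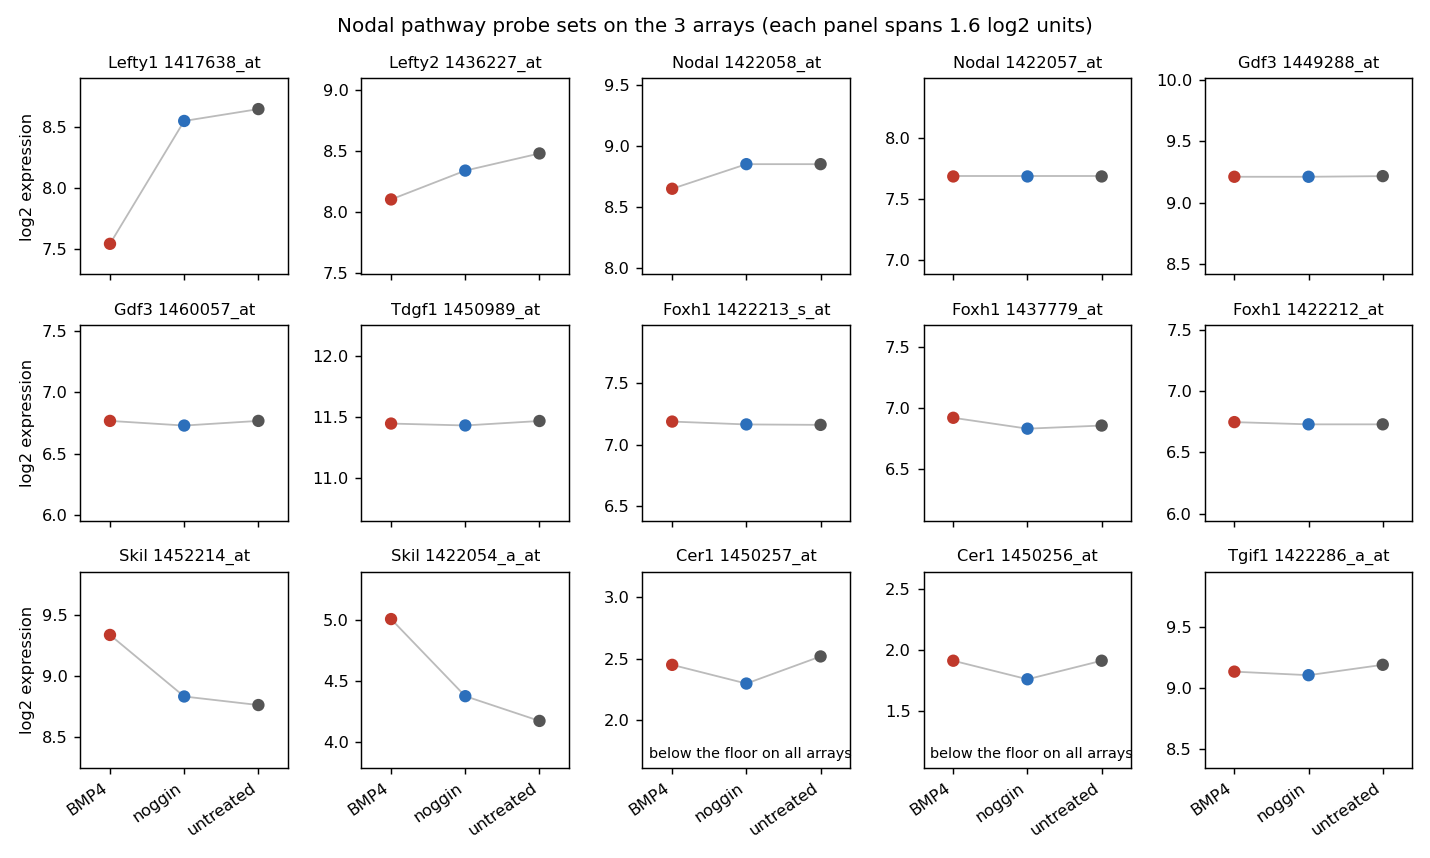
Log2 expression of the 15 probe sets on the BMP4, noggin and untreated arrays, 1 point per array, joined by a line for the eye; each panel spans the same range of log2 units. Lefty1 has its low point on the BMP4 array, at 7.54 against 8.64 untreated, both Skil probe sets have their high point there, and the Cer1 panels lie below the floor of 3.44.

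Lefty1 (probe set 1417638_at) encodes a secreted antagonist of Nodal, known in the mouse embryo for its part in the left-right axis. It measured 7.54 with BMP4, 8.55 with noggin and 8.64 untreated. The BMP4 array was thus the low one, and the other two lay within 0.10 of each other. BMP4 minus untreated was −1.10, a 2.14-fold lower value, and none of the other 11593 genes above the floor had a lower difference. Differences of the same size or larger in either direction were found for 10 of those genes.

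Lefty2 (1436227_at) encodes the close paralogue of Lefty1 and is also an antagonist of Nodal. Its values were 8.10 with BMP4, 8.34 with noggin and 8.48 untreated. The arrays stood in the same order as for Lefty1, over a narrower range. BMP4 minus untreated was −0.38, a 1.30-fold lower value, and 75 genes had a lower difference. Each Lefty gene has 1 probe set on this array. The plain suffix of both identifiers is the array maker's mark for probes not shared with another gene; how far the probes of each hybridise with the transcript of the other was not tested.

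Cer1, which encodes Cerberus, an antagonist of Nodal and BMPs known from the anterior endoderm of the embryo, was below the floor on every array. Its probe set 1450257_at measured 2.45 with BMP4, 2.30 with noggin and 2.52 untreated, and 1450256_at measured 1.91 with BMP4, 1.76 with noggin and 1.91 untreated. Because all of these values are under the floor, the noggin minus untreated differences of −0.22 and −0.15 were not read as differences in transcript.

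Nodal itself is covered by 2 probe sets. Probe set 1422058_at measured 8.65 with BMP4, 8.85 with noggin and 8.85 untreated. Its BMP4 value was the low one, by −0.20, and 493 genes had a lower difference. The second, 1422057_at, gave 7.68 on all 3 arrays, equal to 6 decimals. The probe sets of Nodal therefore did not show the same difference.

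Gdf3 encodes a second TGF-beta family ligand that uses Tdgf1 and is abundant in pluripotent cells. Probe set 1449288_at measured 9.21 with BMP4, 9.21 with noggin and 9.22 untreated. Probe set 1460057_at measured 6.77 with BMP4, 6.73 with noggin and 6.77 untreated. Neither probe set differed from untreated by more than 0.04 on either treated array.

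Tdgf1 (1450989_at), the co-receptor, measured 11.45 with BMP4, 11.43 with noggin and 11.47 untreated. The 3 arrays lay within 0.04 of each other. The RefSeq table also lists the pseudogenes Tdgf1-ps1 and Tdgf1-ps2, and whether their transcripts reach this probe set was not tested.

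Foxh1, the forkhead partner that brings SMAD2 and SMAD3 to DNA, has 3 probe sets. Probe set 1422213_s_at measured 7.19 with BMP4, 7.16 with noggin and 7.16 untreated. For 1437779_at the values were 6.92 with BMP4, 6.83 with noggin and 6.86 untreated. For 1422212_at they were 6.75 with BMP4, 6.73 with noggin and 6.73 untreated. All 3 were highest with BMP4, by 0.02 to 0.06, which is less than the SD of 0.13 among probe sets of a gene described below.

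Skil encodes SnoN, a co-repressor that binds SMAD2, SMAD3 and SMAD4 and whose transcript is itself raised by TGF-beta and Nodal signals. Probe set 1452214_at measured 9.34 with BMP4, 8.83 with noggin and 8.76 untreated. Probe set 1422054_a_at measured 5.01 with BMP4, 4.38 with noggin and 4.18 untreated. Both had the same order of arrays, with BMP4 high. BMP4 minus untreated was 0.57 in the first, 1.49-fold, and 0.83 in the second, 1.78-fold. For the first, which represents the gene, 28 of 11594 genes had a higher difference.

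Tgif1 (1422286_a_at) encodes a homeobox co-repressor that binds SMAD2 and SMAD3. It measured 9.13 with BMP4, 9.11 with noggin and 9.19 untreated. The untreated array was the high one, by 0.06 over BMP4 and 0.08 over noggin. The BMP4 difference of Tgif1, −0.06, is smaller than the SD of 0.13 among probe sets of a gene described below. Its sign was therefore not set against that of Skil.

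**Figure D2:**
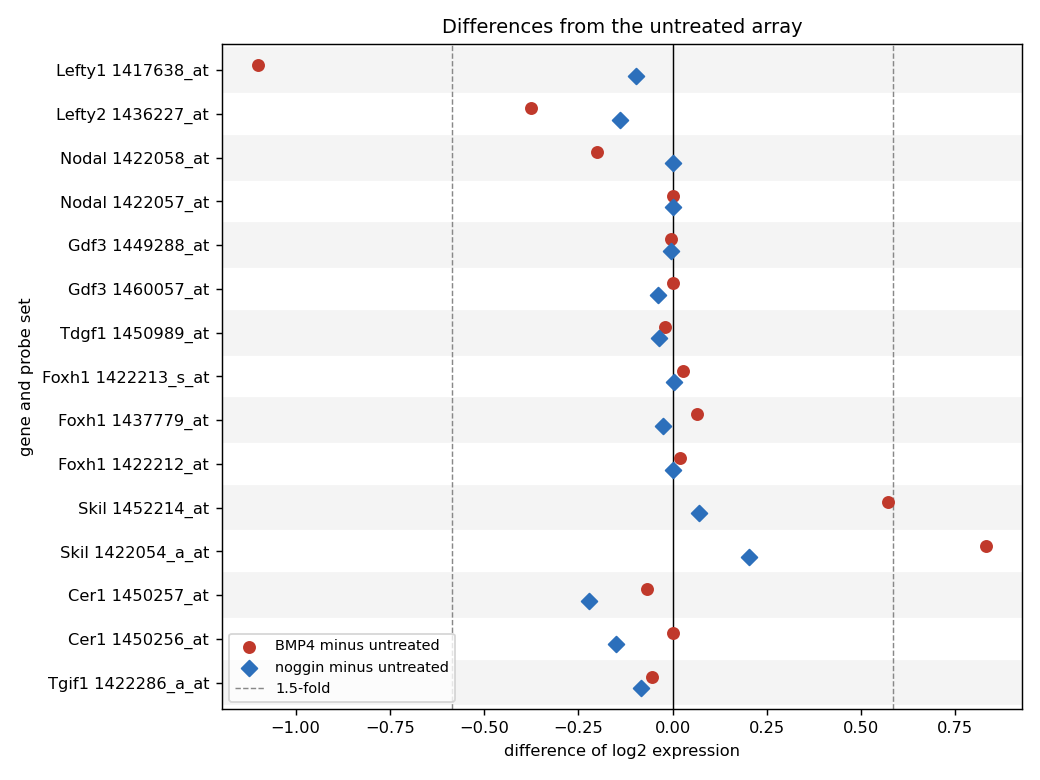
Difference of log2 expression from the untreated array for each of the 15 probe sets, with circles for BMP4 and diamonds for noggin; dashed lines mark 1.5-fold. Lefty1 at −1.10 and the second Skil probe set at 0.83 are past the lines with BMP4, and no noggin point is.

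Counts were made with 1 probe set per gene, the one with the highest mean. For BMP4 minus untreated, 1 of the 8 members above the floor, Lefty1, was at least 1.5-fold lower, against a background of 0.0518% of the 11594 genes. No member was at least 1.5-fold higher, against 0.224%; Skil lay just under the limit of 0.58 and passes it when its probe sets are averaged, at 0.70. At the lower limit of 0.32, 2 members were lower (Lefty1 and Lefty2) against 1.26%, and 1, Skil, was higher against 1%. The median difference of the 8 was −0.04, and that of all genes above the floor 0.00. Because these genes were proposed with the results known, the counts describe them and do not test them.

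The size of these differences can be set beside the spread on the arrays. Probe sets of the same gene differed in BMP4 minus untreated with an SD of 0.13, over 13666 probe sets, and the central 98% of all genes lay between −0.33 and 0.32. Lefty1, Lefty2 and Skil were outside that range, while Nodal, Gdf3, Tdgf1, Foxh1 and Tgif1 were inside it. The poly-A spikes ran from −1.20 to −0.29 in this comparison, which takes in the values of Lefty1 and Lefty2. All 24 of their probe sets were lower with BMP4. The 18 probe sets of the hybridisation spikes ran from −0.02 to 0.10. None of these spreads holds the variation between cultures, which 1 array per condition cannot give.

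**Figure D3:**
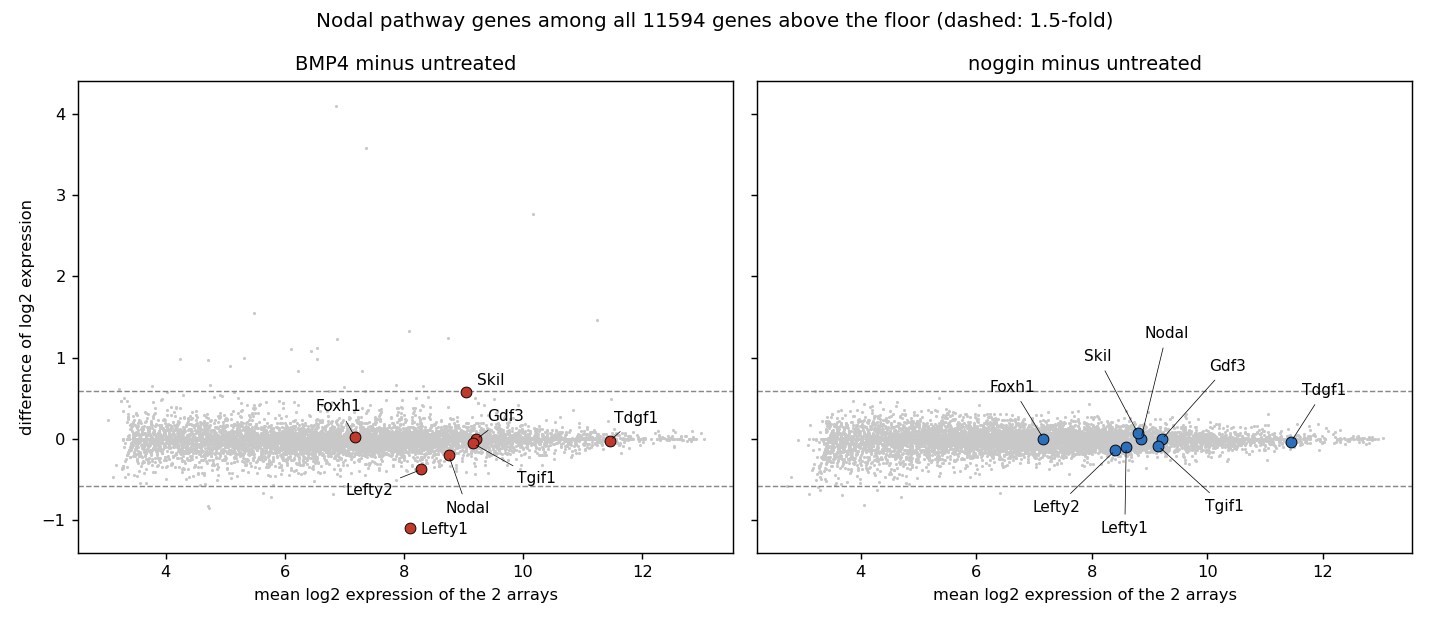
Difference from the untreated array against mean log2 expression of the pair of arrays, for all genes above the floor (grey) with the 8 Nodal pathway genes in colour, BMP4 on the left and noggin on the right; dashed lines mark 1.5-fold. Lefty1 is the lowest point of the BMP4 panel, Skil lies at the upper line with 0.57, and all 8 lie between −0.14 and 0.07 in the noggin panel.

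Noggin-treated cells lay closer to untreated cells than BMP4-treated cells did in Lefty1, Lefty2 and Skil, and in the first probe set of Nodal. Lefty2 had the lowest noggin difference of the 8 representative probe sets, −0.14, followed by Lefty1 at −0.10 and Tgif1 at −0.08. Skil was highest, at 0.07, and 0.20 in its second probe set. Nodal was equal on the noggin and untreated arrays in both probe sets. No member was 1.5-fold different, against 0.0776% of all genes, and the median of the 8 was −0.02, against 0.00 for all genes. The SD among probe sets of a gene was 0.11 in this comparison. Lefty1 and Lefty2 were below, and Skil above, their untreated values with both treatments, but the 2 comparisons share the untreated array.

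BMP4 was last set against noggin, added ligand against its antagonist. Lefty1 measured 7.54 with BMP4 and 8.55 with noggin, a difference of −1.003 or 2.004-fold, and again no gene above the floor had a lower difference; this comparison shares the BMP4 array with the first. Lefty2 differed by −0.24 and Nodal by −0.20 in its first probe set. Skil was higher by 0.50, and by 0.63 in its second probe set. Of the 8 members, 1 was at least 1.5-fold lower, against 0.138% of genes, and 0 were higher, against 0.38%. At the limit of 0.32, 2 of the 8, Lefty1 and Skil, were past it in either direction, against 3.82%. The SD among probe sets of a gene was 0.16.

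Other genes of the pathway were taken from 4 lists by role. Of all 11594 genes, 2871 were higher, 4129 lower and 4594 equal with BMP4, and 3109 were higher, 4191 lower and 4294 equal with noggin. Of 13 ligands, proprotein convertases and antagonists analysed outside the 9 members, 9 were above the floor, and with BMP4 3 were higher, 4 lower and 2 equal, with a median of 0.00. Bmp4 itself was lowest, at −0.26, followed by the activin subunit gene Inhba at −0.07. The Nodal antagonist gene Dand5 was highest, at 0.23, followed by the activin subunit gene Inhbb at 0.11. With noggin 4 were higher and 3 lower. Furin, a convertase that cleaves Nodal precursor, was lowest at −0.19, followed by Bmp4 at −0.09, and Tgfb1 was highest at 0.16, followed by the convertase gene Pcsk7 at 0.05. The follistatin gene Fst, an activin antagonist, was below the floor.

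Among 12 further receptor and co-receptor genes, 8 were above the floor. With BMP4 2 were higher, 3 lower and 3 equal, with a median of 0.00. The type I receptor gene Acvr1b, which transmits the Nodal signal, measured 7.35 with BMP4, 7.47 with noggin and 7.50 untreated. Nomo1, a component of a complex that modulates Nodal signalling in zebrafish, was lowest, at −0.23, though its other probe set gave 0.04. Tmeff1, a membrane protein known to bind Cripto in Xenopus, was highest, at 0.26, and gave 0.22 in a second, dimmer probe set; Tgfbr1 followed at 0.03. The co-receptor gene Cfc1 was below the floor on all arrays. With noggin 4 were higher and 1, Acvr1b at −0.03, was lower; Tgfbr3 was highest, at 0.15, followed by Acvr2b at 0.07.

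Of 15 SMAD and nuclear partner genes, 14 were above the floor, and with BMP4 4 were higher, 6 lower and 4 equal, with a median of 0.00. Smad2 had the same value of 7.65 on all 3 arrays in its main probe set. The inhibitory SMAD gene Smad7, raised by TGF-beta, Nodal and BMP signals, was highest, at 0.34, with 0.13 in its second probe set. Smurf1, a ubiquitin ligase for SMADs, was at 0.12, with 0.00 in its second probe set. Trim33, a SMAD-binding chromatin factor, and Tgif2, a paralogue of Tgif1, were lowest, at −0.17 each; their second probe sets gave −0.15 and 0.06. With noggin 7 were higher and 2 lower. Drap1, which restrains Foxh1 in the mouse embryo, was at −0.05, Tgif2 at −0.01, Smurf1 at 0.12 and Smad7 at 0.16. The second probe set of Smad7 went the other way with noggin, at −0.19, and that of Smurf1 gave 0.00.

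The last list holds other Nodal-activin target genes, of which 16 were analysed here. With BMP4, 8 of the 11 above the floor were higher, 2 lower and 1 equal, and the median was 0.22, against 0.00 for all genes. Mixl1, at 0.23, is counted among the 8 but exceeded the floor on the BMP4 array alone. Its direction was thus set by the filter. Of the 11, 2 were at least 1.5-fold higher, Id1 at 2.76 and Ccn2 at 1.09, against 0.224% of all genes. Id1 was also the check that BMP4 acted, so its place in this count says nothing about Nodal targets. The median of 0.22 takes in both Id1 and Mixl1, so it is subject to the same limits. Id1 is best known as a direct BMP target and Ccn2 as a matrix-associated TGF-beta target, and Smad7, at 0.34, answers to both branches. Otx2, at −0.07, and Dnmt3b, at −0.04, were the members below 0. Eomes, a mesendoderm factor chosen for mention after its value was seen, was at 0.46 in one probe set and 0.11 in the other. Gsc, Foxa2, Lhx1, Fgf8 and Fgf5, markers of the streak, node or primed epiblast, were below the floor. With noggin 2 were higher, 6 lower and 3 equal, with a median of −0.06. Id1 was at −0.19, Sox17 at −0.15, Ccn2 at 0.13 and Smad7 at 0.16, though the second probe set of Smad7 gave −0.19.

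**Figure D4:**
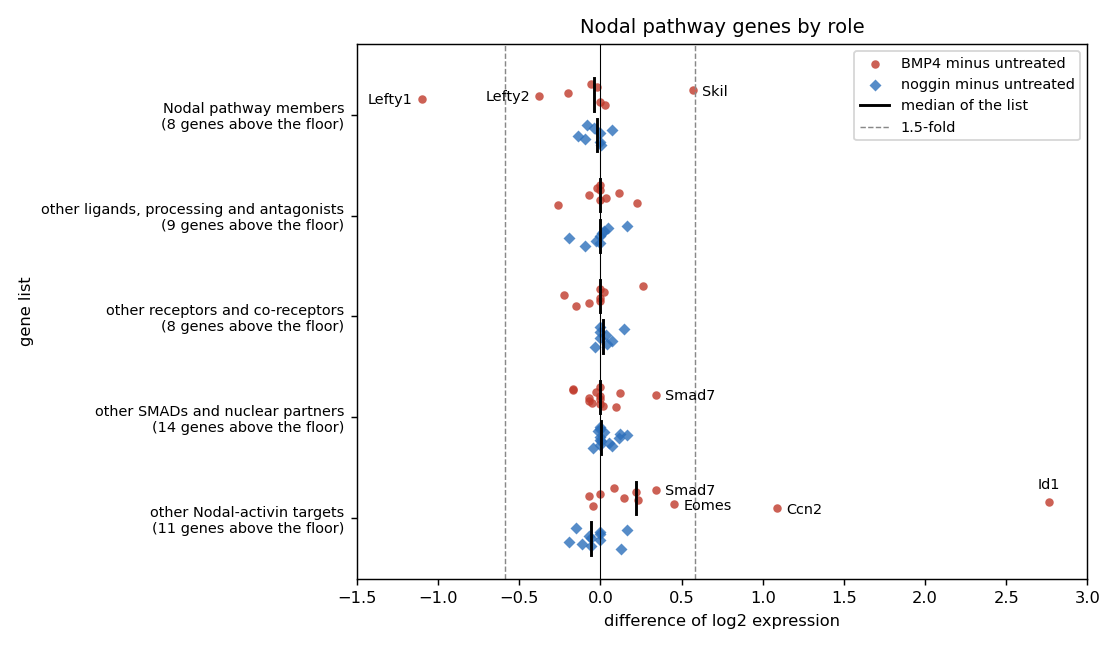
Difference of log2 expression from the untreated array for the genes above the floor in each list, with circles for BMP4, diamonds for noggin, black bars for list medians and dashed lines at 1.5-fold. The medians lie at 0.00 with BMP4 for the lists of other ligands, receptors and SMADs, and at 0.22 for the other targets, where Id1 reaches 2.76. The last median takes in Id1, the check that BMP4 acted, and Mixl1, which exceeded the floor on the BMP4 array alone.

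The genes whose pair of differences from the untreated array lay nearest to that of Lefty1, Lefty2 and Skil were found among 11154 genes, by Euclidean distance over those 2 differences, which come from 3 arrays. For Lefty1 the nearest were Bgn at a distance of 0.26, Ackr3 at 0.29 and Taf7l at 0.39, and 0 genes lay within 0.1. Bgn measured 4.30 with BMP4, 5.13 with noggin and 5.15 untreated. Lefty2 had 50 genes within that distance, the nearest being Bach1 and Gjb5 at 0.01 each and Mapk1ip1 at 0.03. Lefty2 was not among the 3 genes nearest to Lefty1. Skil had 7 within 0.1, led by Ier5l at 0.05, Stau2 at 0.07 and Ddx6 at 0.08. Ier5l measured 7.03 with BMP4, 6.56 with noggin and 6.45 untreated.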

How the data were processed

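The authors deposited log2 expression values per probe set for 3 arrays; per the submitters' processing notes the tool was RMA. Its version and settings and a genome build are not given in the sources used here. RMA corrects background, quantile-normalizes arrays and summarises probes by median polish, which can give exactly equal values: 26.1% of 45101 probe sets were equal to 6 decimals on all 3 arrays. Probe sets were named from the platform annotation: 34945 had 1 gene symbol, 932 several, 9160 none and 64 were controls; 34741 matched the RefSeq table (GRCm38.p6, names and gene order only). Some genes of the pathway lists are not reported here.

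Values were used as deposited, with Python 3.11.15, pandas 2.3.3 and statsmodels 0.14.6. A gene was represented by its probe set with the highest mean, and kept if it exceeded 3.44 on any array (11594 genes). The subtraction and counting were checked on simulated differences, which does not check the choice of probe sets, the floor or the noise of the data. With 1 array per condition no test was run, and the number of arrays limits the precision. The members, the lists and the rule for named genes were chosen with earlier results of these data known. That rule takes all members, genes of the 4 pathway lists past 1.5-fold, the 2 genes of each such list furthest from 0 in each direction, Id1, and the 3 genes nearest to Lefty1, Lefty2 and Skil (clone-named genes left out). Cell type markers are named outside that rule. Alternatives were other floors, probe set rules, scalings (median centring, loess with span 0.3) and fold limits.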

Additional observations from a re-analysis of the deposited data

How the results depend on the processing

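The number of members at least 1.5-fold different was 1 between BMP4 and untreated, 0 between noggin and untreated, and 1 between BMP4 and noggin, and Lefty1 was the member counted. Between BMP4 and untreated it was 2 with each gene's probe sets averaged, which added Skil, and 3 at the lower limit of 0.32, which added Skil and Lefty2. Between BMP4 and noggin it was 2 at that limit. The other settings (no floor, a floor at the 75th percentile, plain-suffix probe sets, median centring, loess and a limit of 2-fold) gave the same counts, and between noggin and untreated all 8 alternatives gave 0. Of 105 single differences recomputed with other probe sets or scalings, 41 took another value, by at most 0.13 (Skil with probe sets averaged), and all stayed within the SD among probe sets of a gene. Median centring changed 0 of its 27, since the medians were already 0.00, and Lefty1, Lefty2, Tdgf1 and Tgif1 have 1 probe set each, so the probe set rules cannot test them. Loess shifted the median of all genes by at most 0.0023. No paired analysis was possible because each condition has 1 array. Signals below 3.44 limit what can be said of Cer1.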

Other observations

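The genes that lie next to the members in the genome were looked up after the members' values were seen, as the nearest 2 protein-coding genes with a probe set on each side (RefSeq, GRCm38.p6, order only). Lefty1 and Lefty2 are next to each other on chromosome 1 in that order. On the Lefty2 side, Sde2 differed by 0.03 for BMP4 minus untreated and H3f3a by 0.00. On the Lefty1 side, Tmem63a differed by −0.05 and Ephx1, which encodes microsomal epoxide hydrolase, by −0.45. Ephx1 measured 5.84 with BMP4, 6.14 with noggin and 6.29 untreated in its 1 probe set, and 27 genes had a lower BMP4 difference. Among the representative probe sets of the 26 neighbours above the floor, over all 9 members, 1, that of Ephx1, was past 0.32 with BMP4, against 1.26% of all genes lower and 1% higher by that much. Other probe sets above the floor and past 0.32 were 1 of Ttc39b, near Cer1, at −0.38 and 1 of Prkci, near Skil, at 0.33. The representative probe sets of those genes gave 0.00 and −0.08. Another probe set of Mfap5, near Gdf3, was at 0.55 but below the floor on every array, and the representative gave 0.00. The neighbours of Gdf3 on chromosome 6 include the pluripotency genes Dppa3, at −0.09, and Nanog, at 0.14.

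Dnmt3b, a DNA methyltransferase gene expressed in pluripotent cells, had probe sets that differed in size: 1418351_a_at measured 6.58 with BMP4, 6.94 with noggin and 6.95 untreated, a difference of −0.37 from untreated, whereas the brighter 1449052_a_at gave −0.04. Of the 3 probe sets of Smad4, 2 were lower with BMP4, at −0.17 and −0.18, and the brightest had the same value on all 3 arrays.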
